A study of Mus musculus with 23 samples.

Results

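The 10 genes described here are Syt2, Vamp1, Cplx1, Nefm, Nefh, Scn4b, Kcna1, Kcna2, Kcnc1 and Pvalb, found by their Ensembl identifiers among the 18848 genes of the table, all 10 of them present. They were chosen as genes of fast-spiking neurons and of hindbrain projection neurons, and selected on measured values, since Syt2, Vamp1, Nefm and Scn4b had been seen to run lower in mutant libraries of these same data. For the members, the difference between genotypes is therefore given below as a description, with no test read from it. Tests of the members are kept for contrasts and measures other than that difference. These tests use the same libraries as the choice, so they are not independent of it. The 23 libraries were made with a stranded mRNA kit from brain RNA of postnatal day 17 C57BL/6J males. Mice heterozygous for the Grin2b mutation C456Y, called HT, had received the treatment labelled DCS (6 libraries) or vehicle (6 libraries). Their wild-type counterparts, called WT, had received DCS (5 libraries) or vehicle (6 libraries). Grin2b is the gene of an NMDA-type glutamate receptor subunit, and the mutant allele is labelled a knock-in. The sources used here give no brain region, no dose or timing of DCS, and do not say whether each library is 1 animal. The p-values below therefore reflect variation among libraries, which may be technical.

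Neurons that fire long trains at high rates need ion channels that reset the membrane within a fraction of a spike, a release apparatus that follows each spike with little delay, buffers for the calcium that enters, and wide axons. In the forebrain these traits mark parvalbumin interneurons, and in the hindbrain, cerebellar nuclei and spinal cord they mark large projection neurons. Syt2, Vamp1 and Cplx1 belong to transmitter release, Nefm and Nefh to the axon skeleton, Scn4b, Kcna1, Kcna2 and Kcnc1 to excitability, and Pvalb to calcium buffering. In a bulk sample, fewer cells of a type and less RNA per cell cannot be told apart.

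The values are read counts that the authors scaled between libraries, called normalised reads here. Their totals ran between 32.3 and 33.5 M a library, and the estimated depth before scaling between 25.6 M reads (HT DCS replicate 5) and 37.5 M (WT vehicle replicate 4). All 10 members passed the filter of a mean of at least 10 normalised reads, as did 17256 genes in all. Libraries stood apart within the HT groups. HT DCS replicate 6 was the lowest library of its group for 9 of the 10 members, and HT vehicle replicate 6 for 8 of 10. Each lay on average below the other libraries of its group, by a mean log2 deviation of -0.242 in HT DCS replicate 6 and -0.241 in HT vehicle replicate 6, and HT DCS replicate 5 had -0.089. Values without these libraries, an alternative chosen with the data known, stand beside the results they move most.

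Promoter sequences, 250 bases before to 50 bases after the annotated start, were read from RefSeq on GRCm38.p6 for the 7 members that have an entry, 9 windows in all, since Syt2 and Pvalb have a pair each. The first window of Syt2 and those of Vamp1, Scn4b and Kcnc1 are shown, 3 of the genes that gave the set its choice and a channel gene that varied closely with Scn4b. The Syt2 window lies at chr1:134646362-134646661, the Vamp1 window at chr6:125215331-125215630, the Scn4b window at chr9:45138374-45138673 and the Kcnc1 window at chr7:46396218-46396517, all on the plus strand. The RefSeq starts differ from the GENCODE gene coordinates given below. The Syt2 window ends before the GENCODE start at 134646677, and most of the Scn4b window lies past the GENCODE start at 45138395. Each is printed 5′ to 3′, with capitals marking a match on either strand to one of 4 motifs that were searched.
Syt2: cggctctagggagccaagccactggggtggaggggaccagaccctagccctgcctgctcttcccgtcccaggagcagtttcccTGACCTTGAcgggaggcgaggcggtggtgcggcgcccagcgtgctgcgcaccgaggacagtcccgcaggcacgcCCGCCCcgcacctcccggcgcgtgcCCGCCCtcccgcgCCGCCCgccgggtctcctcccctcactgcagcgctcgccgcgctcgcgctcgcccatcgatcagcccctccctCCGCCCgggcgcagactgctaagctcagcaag
Vamp1: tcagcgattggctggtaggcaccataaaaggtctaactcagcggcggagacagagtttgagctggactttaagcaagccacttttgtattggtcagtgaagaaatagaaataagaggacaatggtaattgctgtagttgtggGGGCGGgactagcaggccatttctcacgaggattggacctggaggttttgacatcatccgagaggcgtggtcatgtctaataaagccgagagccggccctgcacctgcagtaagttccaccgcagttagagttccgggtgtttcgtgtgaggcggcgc
Scn4b: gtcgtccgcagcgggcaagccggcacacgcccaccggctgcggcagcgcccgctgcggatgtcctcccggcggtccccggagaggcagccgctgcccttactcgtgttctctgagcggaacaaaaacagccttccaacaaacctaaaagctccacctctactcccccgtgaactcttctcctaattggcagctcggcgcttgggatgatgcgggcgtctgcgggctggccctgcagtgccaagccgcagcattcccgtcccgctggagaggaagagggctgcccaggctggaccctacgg
Kcnc1: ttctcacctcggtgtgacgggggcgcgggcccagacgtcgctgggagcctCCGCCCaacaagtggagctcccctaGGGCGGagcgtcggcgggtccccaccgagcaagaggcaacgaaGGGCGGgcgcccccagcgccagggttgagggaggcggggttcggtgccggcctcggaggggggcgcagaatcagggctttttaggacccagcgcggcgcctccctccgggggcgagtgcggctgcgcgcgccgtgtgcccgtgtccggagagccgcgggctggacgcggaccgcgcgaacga
The GC box (GGGCGG), a binding element of Sp-family factors, was in 6 of the 9 windows, both of Syt2 and those of Vamp1, Kcna2, Kcnc1 and Cplx1, and in 35.7% of the 32851 windows of the RefSeq table. The element of estrogen-related receptors (TNAAGGTCA) was in 1 of the 9, on the minus strand of the first Syt2 window at position -167 from the RefSeq start. It was in 1.28% of all windows. The cyclic AMP response element (TGACGTCA) was in 0 of the 9 and 1.79% of all windows, and the TATA box (TATAAA) in 0 of the 9 and 13.6% of all windows. None of the 4 motifs contains another, and a match of letters is no evidence of binding.

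Set per kilobase of exon (the union of exons in GENCODE M21), the level of Cplx1 was the highest of the members, 9446 normalised reads per kilobase averaged over the 23 libraries. Pvalb came next with 2336, then Nefm with 1923, Nefh with 1072, Kcnc1 with 978, Scn4b with 934, Kcna2 with 862, Vamp1 with 716, Syt2 with 670 and Kcna1 with 595 normalised reads per kilobase. Cplx1 exceeded Pvalb, and Nefm exceeded Nefh, with no overlap over the 23 libraries. The ranges of every other pair of neighbours in this order overlapped, although Pvalb was above Nefm, and Kcna2 above Vamp1, within each of the 23 libraries. The least separated were Nefh, above Kcnc1 in 18 of 23 libraries, Kcnc1, above Scn4b in 18, and Scn4b, above Kcna2 in 17.

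Syt2 (ENSMUSG00000026452, chr1:134646677-134762593 on GRCm38, plus strand) encodes synaptotagmin 2, the calcium sensor of fast release in many hindbrain synapses and in parvalbumin interneurons. It had 3967 normalised reads in the lowest of 6 HT DCS libraries, a median of 4458 and 5082 in the highest, against 5760, 5808, 5337, 5650 and 5441 normalised reads in the 5 WT DCS libraries. Every HT DCS library lay below every WT DCS library. Under vehicle, Syt2 had 3922 in the lowest, a median of 5180 and 5296 in the highest of 6 HT libraries, against a lowest of 5199, a median of 5681 and a highest of 5895 in 6 WT libraries. These ranges overlapped narrowly, with 3 of the 6 HT vehicle libraries under the lowest WT vehicle library. The log2 difference of Syt2 was -0.34 ± 0.07 (SE) between HT DCS and WT DCS, a ratio of means of 0.79, and -0.20 ± 0.06 between HT vehicle and WT vehicle, a ratio of 0.87. Without the 3 low HT libraries, the differences were -0.26 and -0.14.

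Vamp1 (ENSMUSG00000030337, chr6:125215551-125245964, plus strand) encodes synaptobrevin 1, the vesicle SNARE that Syt2 works with at such synapses. Its normalised reads were 5462 at the lowest, 6956 at the median and 7329 at the highest in HT DCS, against 7962, 8154, 7207, 7209 and 7726 in WT DCS, where the ranges overlapped. Under vehicle they were 6404 at the lowest, 6977 at the median and 7278 at the highest in HT, against 7564, 7753 and 8157 at the lowest, median and highest in WT, and did not overlap. The log2 difference was -0.19 ± 0.05 (SE) under DCS and -0.17 ± 0.05 under vehicle, and -0.10 under DCS without HT DCS replicates 5 and 6. Cplx1 (ENSMUSG00000033615, chr5:108518554-108550024, minus strand), whose complexin both clamps and promotes SNARE fusion, averaged 19861 ± 1142 normalised reads in HT DCS brains and 21186 ± 1060 in WT DCS brains (SD, n = 6 and 5). It averaged 20428 ± 409 in HT vehicle and 21319 ± 418 in WT vehicle (SD, n = 6 each). Its log2 differences of -0.09 ± 0.03 and -0.06 ± 0.03 (SE) were the smallest of the 3 release genes, and the ranges overlapped under both treatments. The difference of Cplx1 under DCS was -0.05 without HT DCS replicates 5 and 6.

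Nefm (ENSMUSG00000022054, chr14:68082590-68124846, minus strand) and Nefh (ENSMUSG00000020396, chr11:4938754-4948064, minus strand) encode the medium and heavy neurofilament chains, which fill large myelinated axons. Nefm had 9495 normalised reads at the lowest, 10611 at the median and 11146 at the highest in HT DCS, against 12533, 11640, 11235, 11576 and 11611 in WT DCS, with no overlap. Under vehicle it had 9977, 10897 and 11526 at the lowest, median and highest in HT, against 11032, 11719 and 12108 in WT, with overlap. The log2 difference of Nefm was -0.17 ± 0.04 (SE) under DCS and -0.10 ± 0.04 under vehicle, and -0.11 under DCS without HT DCS replicates 5 and 6. Nefh averaged 4037 ± 399 normalised reads in HT DCS brains and 4452 ± 275 in WT DCS (SD, n = 6 and 5), and 4214 ± 221 in HT vehicle and 4451 ± 181 in WT vehicle (SD, n = 6 each). Its ranges overlapped in both, with log2 differences of -0.15 ± 0.06 and -0.08 ± 0.05 (SE). The difference of Nefh under DCS was -0.05 without HT DCS replicates 5 and 6.

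Scn4b (ENSMUSG00000046480, chr9:45138395-45154152, plus strand) encodes the sodium channel subunit linked to resurgent current, which speeds recovery between spikes. It had 3173 normalised reads at the lowest, 4157 at the median and 4866 at the highest in HT DCS, against 5700, 5109, 5392, 4437 and 4539 in WT DCS, where the ranges overlapped. Under vehicle it had 3758, 4483 and 4631 at the lowest, median and highest in HT, against 4691, 5035 and 5942 in WT. Here every HT vehicle library was below every WT vehicle library. The log2 difference of Scn4b was -0.29 ± 0.09 (SE) under DCS and -0.22 ± 0.08 under vehicle, and -0.20 under DCS without HT DCS replicates 5 and 6.

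Kcnc1 (ENSMUSG00000058975, chr7:46396497-46438704, plus strand) encodes a Kv3-family channel that repolarises the membrane within the spike. It averaged 8587 ± 859 normalised reads in HT DCS brains and 9844 ± 593 in WT DCS (SD, n = 6 and 5), a log2 difference of -0.20 ± 0.07 (SE), or -0.12 without HT DCS replicates 5 and 6. Under vehicle it averaged 9226 ± 999 in HT and 9426 ± 645 in WT (SD, n = 6 each), with a log2 difference of -0.04 ± 0.07 (SE). Kcna1 (ENSMUSG00000047976, chr6:126640397-126646384, minus strand) and Kcna2 (ENSMUSG00000040724, chr3:107101146-107115005, plus strand) encode Kv1-family channels that flank the nodes of myelinated axons and hold back extra spikes. The log2 difference between HT DCS and WT DCS was -0.10 ± 0.07 for Kcna1 and -0.11 ± 0.06 for Kcna2 (SE), and between HT vehicle and WT vehicle -0.01 ± 0.06 and -0.03 ± 0.06. Without HT DCS replicates 5 and 6 the DCS values were -0.07 for Kcna1 and -0.08 for Kcna2. The ranges of all 3 potassium channel genes overlapped between genotypes under both treatments, and without HT vehicle replicate 6 the vehicle differences of Kcna1, Kcna2 and Kcnc1 were 0.07, 0.05 and 0.03, above 0. Pvalb (ENSMUSG00000005716, chr15:78191114-78206400, minus strand), the calcium buffer that names the interneurons, averaged 2308 ± 295 normalised reads in HT DCS brains and 2488 ± 193 in WT DCS brains (SD, n = 6 and 5), and 2420 ± 72.3 in HT vehicle and 2520 ± 115 in WT vehicle (SD, n = 6 each). Its log2 difference was -0.12 ± 0.06 (SE) under DCS, or 0.004 without HT DCS replicates 5 and 6, and -0.06 ± 0.06 under vehicle.

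**Figure D1:**
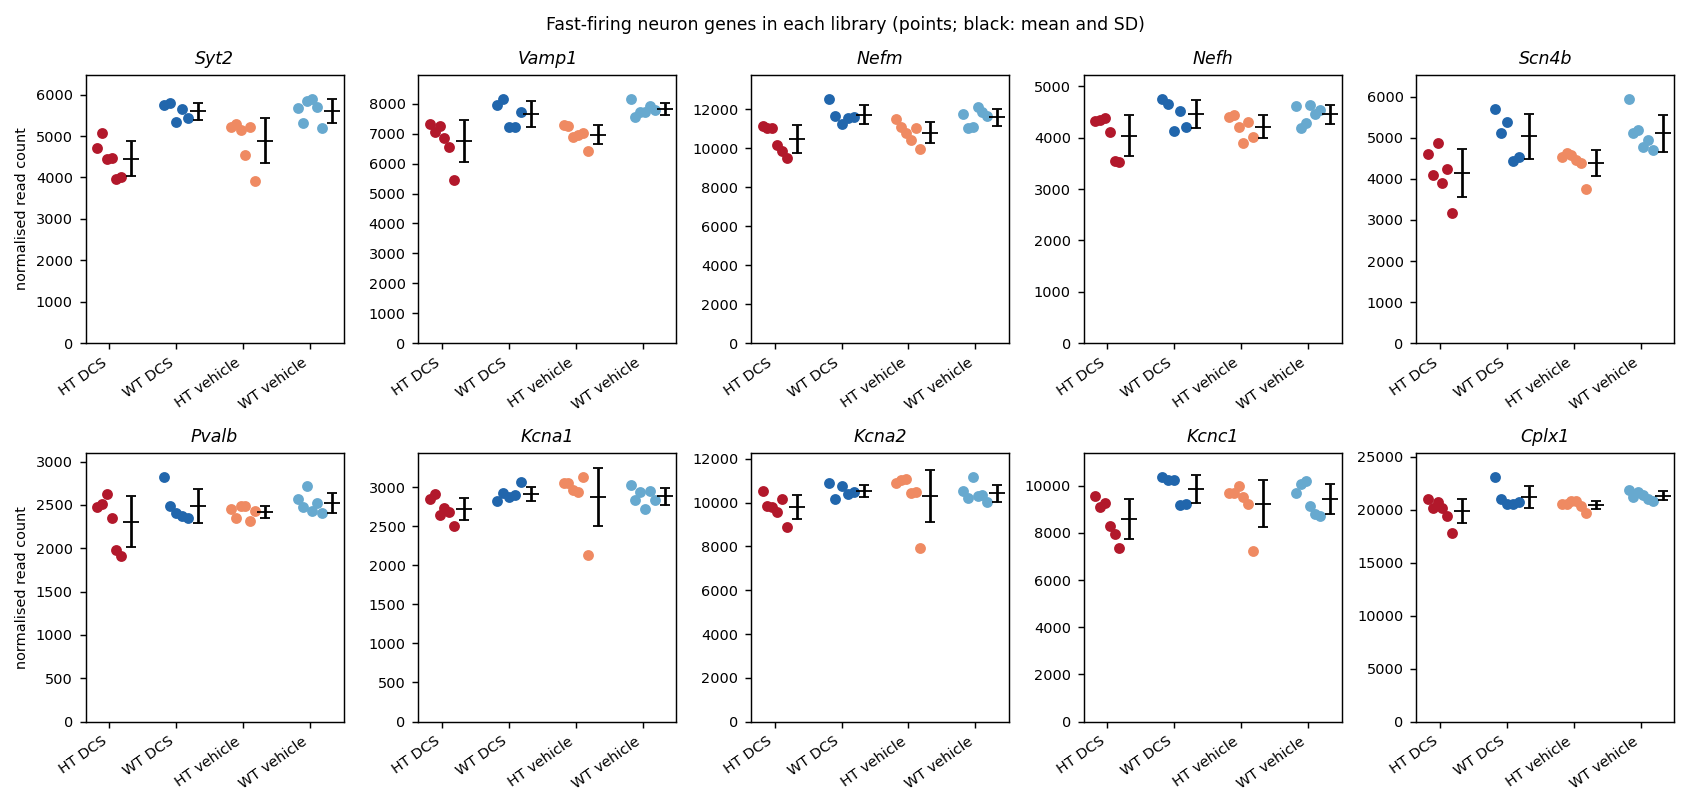
Normalised read count (y axis, from 0) of each of the 10 genes in every library, with the 4 groups along the x axis. Each point is a library and the black bar gives the group mean and SD. Syt2 in HT DCS runs between 3967 and 5082, under all 5 WT DCS libraries, and HT vehicle replicate 6 is the low point for Kcna1, Kcna2 and Kcnc1.

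All 10 members had a lower mean in HT DCS than in WT DCS, and all 10 in HT vehicle than in WT vehicle. Without HT DCS replicates 5 and 6 the first count was 9, and without HT vehicle replicate 6 the second was 7. Over all genes tested, 50.2% were lower in the first comparison and 50.3% in the second, but the choice of members rests on these contrasts, so nothing is read from the counts. Complete separation of the libraries, seen in 2 members under DCS (Syt2 and Nefm), occurred downwards in 0.243% of genes (42 of 17256). Under vehicle, it was seen in 2 members (Vamp1 and Scn4b) and in 0.133% of genes (23 of 17256). limma with Benjamini-Hochberg adjustment called 0 of 17256 genes (0%) in either genotype comparison, where 1302 genes under DCS and 729 under vehicle had an unadjusted p under 0.05. Without HT vehicle replicate 6 it called 1 gene between HT DCS and WT DCS. These are counts over all genes, and no call of a member is read, since the choice used these contrasts. Under DCS, the 4 genes whose values prompted the choice differed by -0.34 to -0.17 on the log2 scale. The other members differed by -0.20 (Kcnc1) to -0.09 (Cplx1), so these spans overlap. Under vehicle the spans did not overlap. There the 4 genes differed by -0.22 (Scn4b) to -0.10 (Nefm), and the other members by -0.08 (Nefh) to -0.01 (Kcna1).

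**Figure D2:**
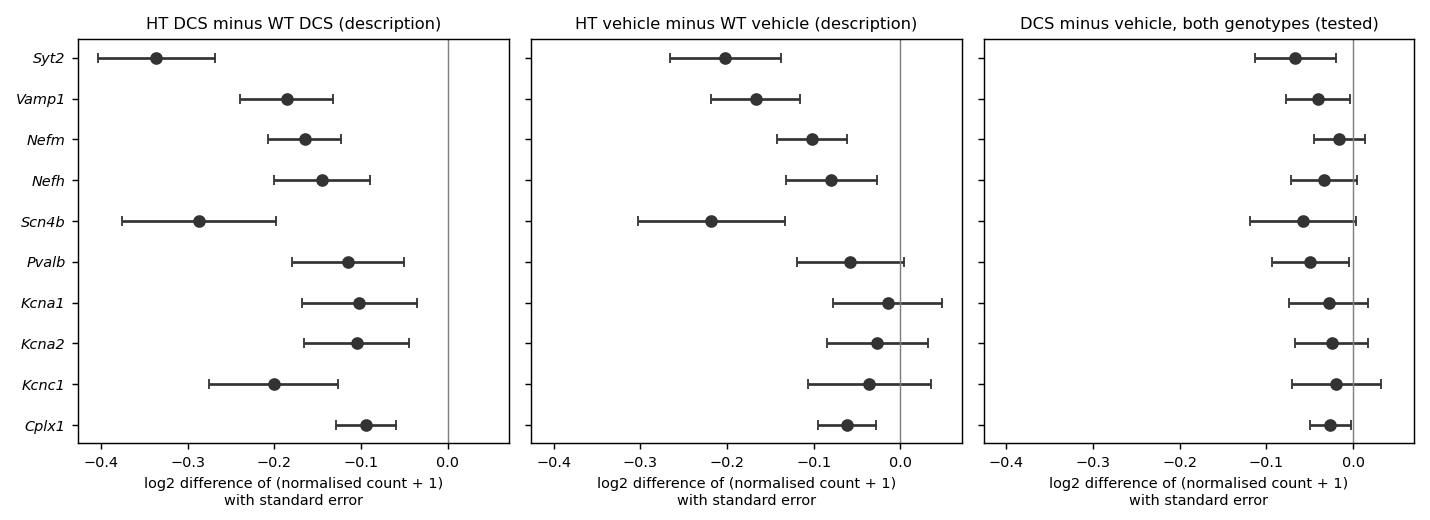
Log2 difference in normalised count (x axis, with 1 added) for each gene (y axis), between HT DCS and WT DCS, between HT vehicle and WT vehicle, and between DCS and vehicle over both genotypes. Points are limma estimates and bars are standard errors. Syt2 and Scn4b lie farthest from 0 between genotypes, at -0.34 and -0.29 under DCS, and all members lie within -0.07 and 0 for DCS against vehicle.

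The average effect of DCS over both genotypes was a contrast that the choice of genes did not use, although it rests on the same libraries. limma called 0 of 17256 genes in it (0%) and 0 of the 10 members, and 545 genes (3.16%) and 0 members had an unadjusted p under 0.05. The log2 difference between DCS and vehicle ran between -0.07 (Syt2) and -0.02 (Nefm), with a median of -0.03 over the members and -0.0009 over all genes. The 95% intervals of the members spanned -0.19 to 0.09, and the adjusted p of each was 0.999995 in limma. The mean of all 10 was lower under DCS, but without HT DCS replicates 5 and 6 that count was 5 of 10 and the difference of Syt2 was -0.03.

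Within each genotype the effect of DCS is given as a description. Those contrasts share groups with the ones that chose the genes and, unlike the average effect, are not taken over both genotypes. In HT, all 10 members had a lower mean under DCS than under vehicle, from -0.13 ± 0.06 (SE) on the log2 scale for Syt2 to -0.04 ± 0.03 for Cplx1, and without HT DCS replicates 5 and 6 it was 5 of 10, with -0.06 for Syt2. In WT, 5 of 10 had a lower mean under DCS, with differences between -0.03 ± 0.05 (Vamp1) and 0.06 ± 0.07 (Kcnc1), a count that was 3 without WT DCS replicate 3 and 3 without WT vehicle replicate 1. The difference between the DCS effects in HT and WT was below 0 for each member, and largest for Kcnc1 (-0.17 ± 0.10) and Syt2 (-0.13 ± 0.09), and its standard error exceeded its size for every member other than Syt2, Nefm and Kcnc1. Without HT DCS replicate 6 it was below 0 for 8 of 10 members, and without HT DCS replicates 5 and 6 for 5 of 10, where it was -0.08 for Kcnc1, -0.06 for Syt2 and 0.06 for Pvalb.

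The members also varied together from library to library within groups, a measure that leaves out the genotype difference. It is not independent of the choice, since a low HT library bears on both. Deviations of log2 values from the group means were correlated over the 23 libraries for 85 relations, 45 between members and 40 between a member and a list of marker genes, with permutation within groups (100000 resamples, two-sided). Of the 45 pairs of members, 37 passed an adjusted p of 0.05 on Pearson r and all 45 had r above 0, with a median of 0.64. Fewer pairs passed the same permutation test on the rank correlation rho. Among those that passed on r alone were Scn4b with Kcna1 (adjusted p of rho 0.282), Kcna1 with Kcnc1 (0.141), Nefm with Kcna1 (0.128) and Nefm with Kcnc1 (0.103). The counts below are on r. The share of other gene pairs that would pass the same test was not computed. Neither count is therefore read as particular to the members. Nefm and Nefh, partner chains of the same filament, varied most closely (r = 0.88, rho = 0.87, permutation p = 1e-05, the smallest the resamples can give, adjusted p = 0.000283, and r = 0.86 without the 2 libraries farthest out). Kcna1 and Kcna2, which form channels together, had r = 0.86 and rho = 0.57 (permutation p = 0.0105, adjusted p = 0.0229), and r = 0.48 without the 2 farthest libraries. Without HT vehicle replicate 6 alone their r was 0.42, which did not pass, so the relation rests on that library. Pvalb and Cplx1 had r = 0.85 and rho = 0.83 (permutation p = 0.00017, adjusted p = 0.00161), and r = 0.77 without the 2 farthest. Scn4b had r = 0.82 and rho = 0.69 with Cplx1 (permutation p = 7e-05) and r = 0.79 and rho = 0.71 with Kcnc1 (permutation p = 8e-05), both with an adjusted p of 0.000971, and 0.66 and 0.69 without the 2 farthest. Pvalb and Kcna1 varied least together, with r = 0.14 (permutation p = 0.394, adjusted p = 0.419).

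These counts rested in large part on a few HT libraries, and on whether replicate numbers were set as a block. With that block, 17 pairs passed on title numbers and 19 on description numbers. Without HT vehicle replicate 6, 22 of the 45 pairs passed, without HT DCS replicate 6, 23 passed, and without HT DCS replicates 5 and 6, 18 passed. Without all 3, 8 pairs passed, each of which had passed with all libraries. They were Nefm with Nefh (r = 0.83), Pvalb with Cplx1 (0.82), Scn4b with Kcnc1 (0.74), Scn4b with Cplx1 (0.69), Scn4b with Pvalb (0.66), Syt2 with Nefh (0.65), Pvalb with Kcnc1 (0.64) and Vamp1 with Nefm (0.62). Kcna1 was in none of the 8 pairs, and its r with Kcnc1 was -0.04 there, against 0.69 with all libraries.

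**Figure D3:**
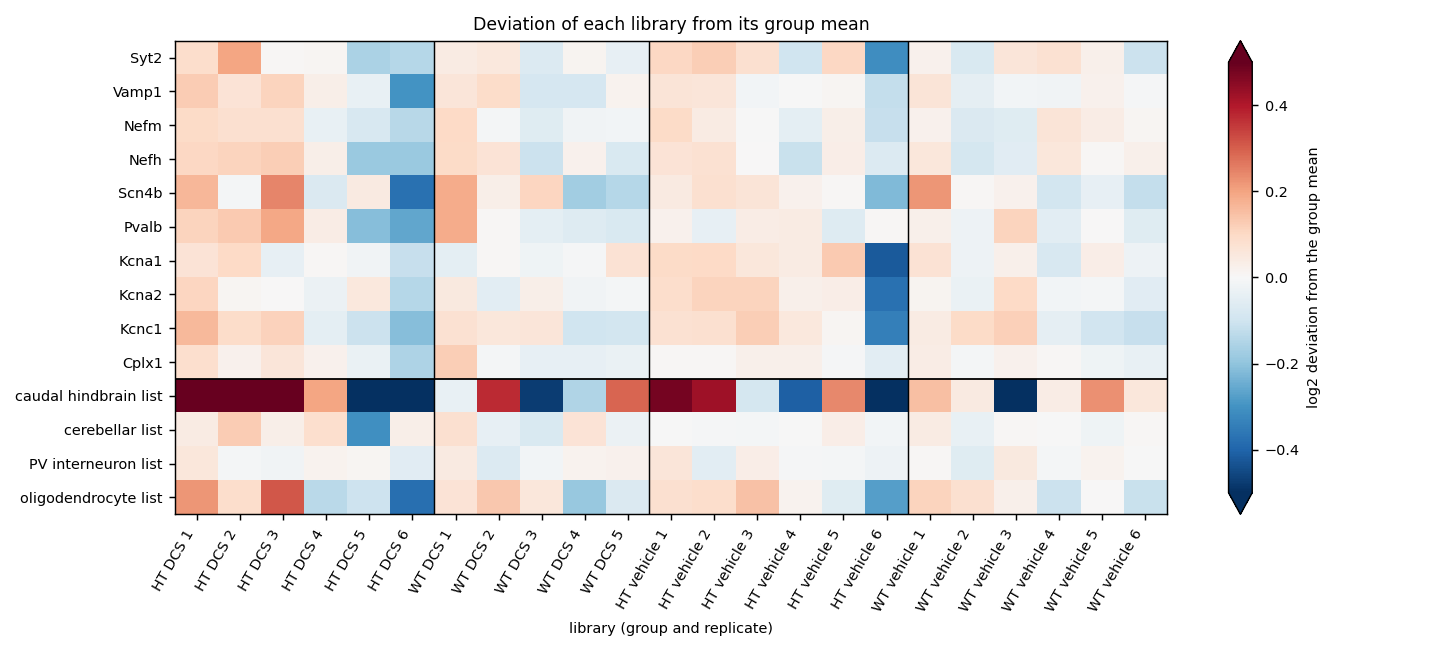
Log2 deviation of each library (x axis) from its group mean, for the 10 genes and the mean of 4 marker lists (y axis), as colour, with values beyond 0.5 shown at the end of the scale. HT DCS replicate 6 is below its group mean for all 10 genes and HT vehicle replicate 6 for 9 of 10.

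Markers of cell types and regions varied with the members. The caudal hindbrain list (Hox genes, glycinergic, serotonergic and motor markers) has 21 genes, 18 in the table and 14 above the filter. Hoxa2, Hoxb2, Hoxd4, Hoxa5 and Hoxc5 were listed at 0 in at least 1 library. All 14 genes above the filter had a lower mean in HT DCS than in WT DCS, with a median log2 difference of -0.51, and 12 of 14 in HT vehicle than in WT vehicle, with a median of -0.43. Without the 3 HT libraries, 8 of 14 were lower under DCS, with a median of -0.02, and 12 of 14 under vehicle, with a median of -0.35. The summed level of the 18 genes in the table was 937 to 2219 normalised reads in HT DCS brains and 1736 to 2269 in WT DCS. It was 1512 to 2302 in HT vehicle and 1827 to 2478 in WT vehicle. Over the libraries, the mean log2 level of the same 18 genes, those under the filter included, passed the test with 6 of 10 members. Among them were both neurofilament genes, Syt2 and Vamp1. Nefh had r = 0.86 and rho = 0.79 with it (permutation p = 0.00021, adjusted p = 0.00162), and Nefm had r = 0.79 and rho = 0.75 (permutation p = 0.00011, adjusted p = 0.00117), or 0.67 and 0.72 without the 2 libraries farthest out for each gene. Vamp1 had r = 0.75 with it, Syt2 0.71, Kcnc1 0.52 and Kcna1 0.48. On rho Kcnc1 did not pass (adjusted permutation p = 0.114).

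Oligodendrocyte genes, which make the myelin sheath, were lower in the HT groups too. All 15 had a lower mean in HT DCS than in WT DCS, with a median log2 difference of -0.24, and all 15 in HT vehicle than in WT vehicle, with a median of -0.10. Without the 3 HT libraries, 15 of 15 were lower under DCS, with a median of -0.12, and 11 of 15 under vehicle, with a median of -0.05. The summed level was 344910 to 537950 normalised reads in HT DCS brains and 470630 to 558470 in WT DCS, and 414580 to 527880 in HT vehicle and 483750 to 555550 in WT vehicle, with 0 genes of the list at 0. The list passed the test on r with 9 of 10 members, all but Nefh. On rho Nefh passed (adjusted permutation p = 0.0486), while Nefm (0.0516) and Kcna1 (0.108) did not. Scn4b had r = 0.90 and rho = 0.83 with the list (permutation p = 1e-05, adjusted p = 0.000283), and Kcnc1 had r = 0.88 and rho = 0.86 (permutation p = 1e-05, adjusted p = 0.000283), or 0.80 and 0.84 without the 2 farthest libraries. Without HT DCS replicates 5 and 6, the oligodendrocyte list passed with 5 members and the caudal hindbrain list with 5, and without the 3 HT libraries with 2 each. The part of either list in the results for the members was not tested. How many other genes would pass with either list was not computed.

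**Figure D4:**
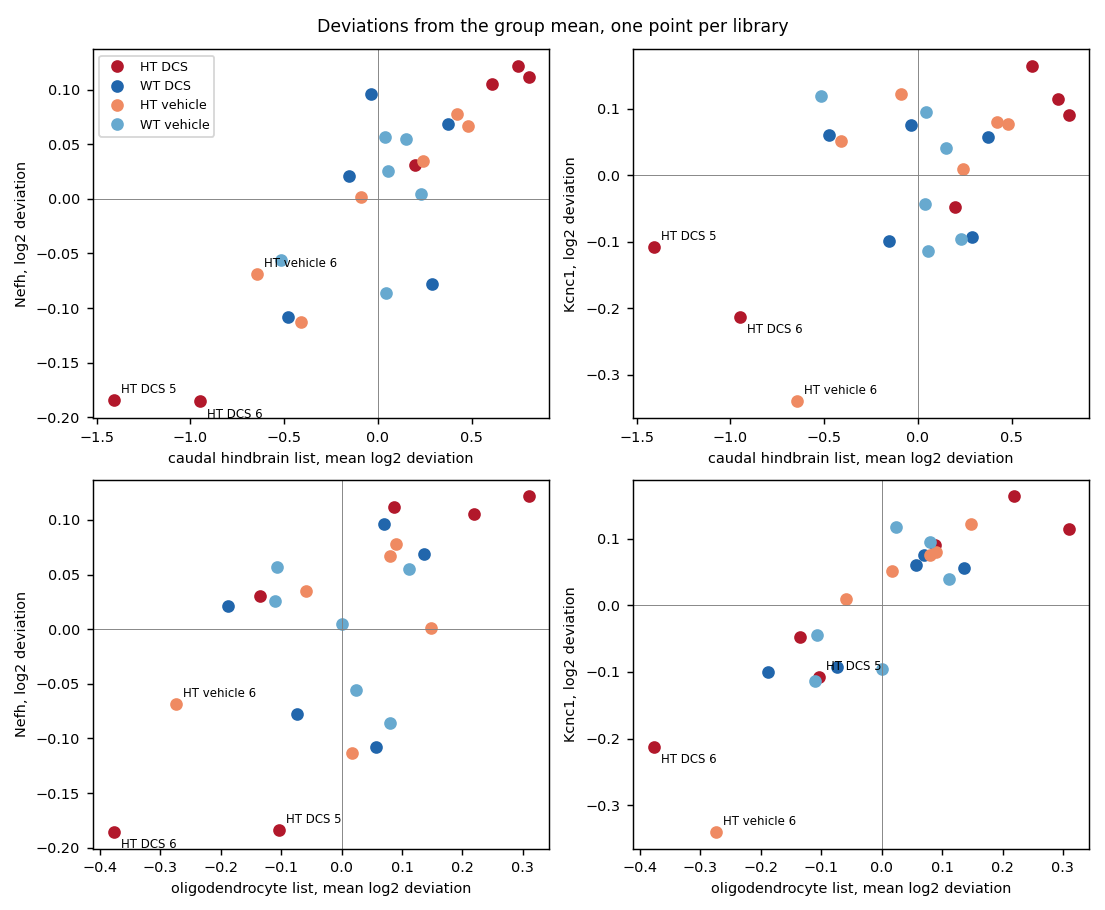
Log2 deviation from the group mean of Nefh and of Kcnc1 (y axes) against the mean deviation of the caudal hindbrain list and of the oligodendrocyte list (x axes), each point a library and each colour a group. Nefh follows the hindbrain list (r = 0.86) and Kcnc1 the oligodendrocyte list (r = 0.88). HT DCS replicates 5 and 6 and HT vehicle replicate 6 are the lowest on the hindbrain axis. On the oligodendrocyte axis HT DCS replicate 6 and HT vehicle replicate 6 are the lowest, and HT DCS replicate 5 lies among other libraries. For Nefh, HT vehicle replicate 6 lies among other libraries too.

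The cerebellar list passed the test on r with Syt2 (r = 0.46) and Nefh (r = 0.60), and r ran down to -0.05 (Kcna2). On rho neither passed (adjusted permutation p = 0.121 for Syt2 and 0.0516 for Nefh). The cerebellar list passed with 0 members without the 3 HT libraries, as did the interneuron list that follows. The list set for parvalbumin interneurons, without the members, holds genes shared with other inhibitory neurons, such as Gad1, Gad2 and Lhx6. It is therefore not specific to parvalbumin cells. This list passed on r with Cplx1 alone (r = 0.49). On rho Cplx1 did not pass (adjusted permutation p = 0.121) and Kcna2 did (rho = 0.53, adjusted permutation p = 0.0256). The genes of the list had a lower mean in HT DCS than in WT DCS in 6 of 11 cases, with a median log2 difference of -0.003. Its summed level overlapped between genotypes, at 30284 to 33524 normalised reads in HT DCS brains and 31886 to 34793 in WT DCS, and 30824 to 33323 in HT vehicle and 31751 to 33654 in WT vehicle. Of 8 forebrain excitatory genes 0 were lower in HT DCS than in WT DCS (median 0.05), and of 8 thalamic genes 5 were (median -0.01). Of 7 astrocyte genes 2 were lower (median 0.04), and of 6 microglial genes 1 (median 0.19). None of these genes was listed at 0 in any library, so forebrain, thalamic and cerebellar markers were all present in the tissue labelled brain.

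**Figure D5:**
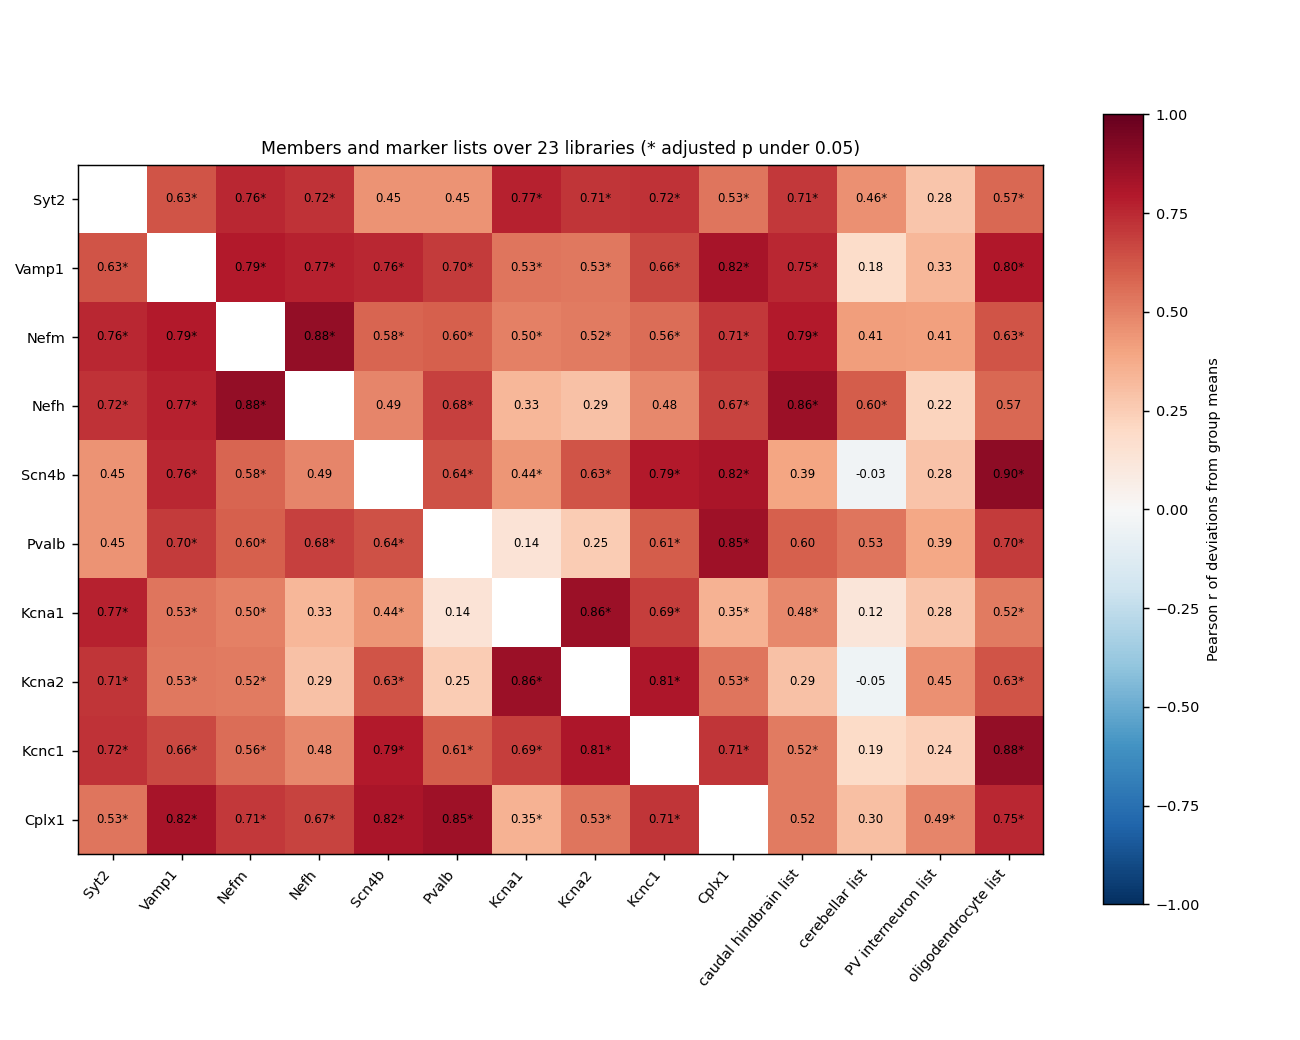
Pearson r between deviations from the group means over the 23 libraries, for each pair of the 10 genes and for each gene (rows) with 4 marker lists (last 4 columns). An asterisk marks an adjusted permutation p under 0.05. All 45 pairs are above 0, and the oligodendrocyte column has 9 asterisks against 2 in the cerebellar column.

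Genes of the same families and complexes that are no members were read from fixed lists, and 0 of each were called by limma for DCS against vehicle, as for all genes (0%). Of 13 other synaptotagmins, 5 had a lower mean in HT DCS than in WT DCS, with a median log2 difference of 0.01, near that of all genes (-0.0003). Syt1, the calcium sensor of most forebrain synapses, had 0.01 ± 0.03 (SE). Of 15 other genes of the release machinery 11 were lower (median -0.01), and of 3 related filament chains all 3 (median -0.08). Of 15 genes of Kv1 and Kv3 channels and their partners 9 were lower (median -0.08), and of 7 sodium channel genes 4 (median -0.03). The perineuronal net list, whose proteins coat parvalbumin neurons, had 4 of 9 lower (median 0.007), and the list of Ppargc1a, a regulator of parvalbumin neuron genes, and its partners had 3 of 5 lower (median -0.01). Of the 2 other calcium-binding genes above the filter, 1 was lower (median -0.04). Between HT vehicle and WT vehicle, the lower genes were 5 of 13 synaptotagmins, 9 of 15 release genes, 3 of 3 filament chains, 8 of 15 potassium channel and partner genes and 4 of 7 sodium channel genes.

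Of the genes outside the set, Sv2c, a synaptic vesicle protein gene, varied most like Syt2 over the 23 libraries (r = 0.90). Next were Itpr1, the inositol trisphosphate receptor abundant in Purkinje cells and a gene of the cerebellar list (r = 0.85), and Glra1, a glycine receptor subunit of the caudal hindbrain list (r = 0.84). Lgi2 and Steap2 followed, with r = 0.84 and 0.82. The median r with Syt2 over all 17256 genes was 0.004 and the 95th percentile 0.47. On that scale Kcna1 ranked 18, Nefm 21, Nefh 31, Kcnc1 33 and Kcna2 40, ahead of Vamp1 at 185 and Cplx1 at 503. Pvalb at 1038 and Scn4b at 1067 were the members that followed Syt2 least, both with r = 0.45. Much of this order rested on the 3 low HT libraries. Without them Sv2c was still the first (r = 0.82), Nefh ranked 37 (r = 0.65) and Nefm 200 (r = 0.54), while Itpr1 ranked 80 (r = 0.59). Kcna2 ranked 931 (r = 0.40), Kcna1 946 (r = 0.40), Vamp1 1571 (r = 0.34) and Kcnc1 3533 (r = 0.215). Cplx1 ranked 3918 (r = 0.20), Pvalb 4253 (r = 0.18) and Scn4b 7131 (r = 0.06).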

How the data were processed

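RNA of mouse brain was sequenced in 23 libraries. The authors deposited one table of normalised signal, read counts scaled between libraries, with decimals and 18848 genes. Per the submitters' processing notes, Salmon 1.1.0, R 3.6.2, DESeq2 1.26.0 and GRCm38 were used, with no role given. Low values clustered at steps of 0.879 to 1.277, the worth of 1 read, but only 56.7% to 76.8% lay within 0.15 of a whole multiple, so reads were not recovered, and the depth of 25.6 to 37.5 M reads is an estimate. Scaling hides differences in total RNA.

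limma 3.58.1 in R 4.3.3 was fitted to log2(value + 1), giving each of the 4 groups its own mean and all 23 libraries a common spread, with a mean trend and robust settings. Tests were two-sided and adjusted over the 17256 genes averaging 10 or more. On this scale a fold understates the change of low genes. On simulated data it recovered 64.2%, 88.1% and 98.4% of genes changed by 0.25, 0.5 and 1 on the log2 scale (DCS against vehicle, 17264 genes, 9 false calls). Correlations used numpy 2.4.6.

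The members and lists were chosen with earlier results of these data known. Named genes were the 10 members, the 5 most like Syt2, and the highest genes of each list. Symbols were left blank for 16 identifiers. Alternatives were the pseudocount, the filter, quantile normalisation, a replicate block and leaving out libraries.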

Additional observations from a re-analysis of the deposited data

Results flagged for a closer look

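Each member was examined in each group, 40 sets in all, for a library far from the others of its group, and 5 sets held one. Chance alone marks about 1 in 20 such sets. The sets are not independent, since the same libraries recur across genes that vary together, so the count is not compared with that rate. HT vehicle replicate 6 was far below the others for 4 of the channel genes. It had 3758 normalised reads of Scn4b where the next library had 4395, and 2132 of Kcna1 where the next had 2934. It had 7913 of Kcna2 where the next had 10425, and 7249 of Kcnc1 where the next had 9239. The remaining set was Cplx1 in WT DCS, where replicate 1 had 23053 normalised reads and the next library 21026.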

How the results depend on the processing

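The numbers of members called for DCS against vehicle stayed at 0 in every alternative, and all 10 stayed lower in HT DCS than in WT DCS whichever library was left out. Without HT DCS replicates 5 and 6, 5 members were lower under DCS over both genotypes and 5 in HT, and Vamp1 (0.0015), Nefm (0.012), Nefh (0.013), Pvalb (0.010) and Kcnc1 (0.021) turned above 0 for DCS against vehicle. Without HT vehicle replicate 6 as well, Nefm (0.00018), Nefh (0.0057) and Pvalb (0.011) did. Leaving out 1 library each, Kcnc1 ran from -0.0532 to 0.0021, the count of members lower under DCS in WT from 3 to 7, and the pairs of members called from 22 to 40. Over all genes, 5 of 33 pairs of libraries with the same title number had r over 0.1 (median 0.015, highest 0.303). Of the 165 other pairs, 9 did (highest 0.154). The labels do not say whether a number marks a shared batch, and these values do not settle it. The main fit therefore has no block. For the members, the replicates 1 had a median deviation above 0 in every group (0.106, 0.086, 0.072 and 0.039 in HT DCS, WT DCS, HT vehicle and WT vehicle), and the libraries numbered 6 in the descriptions one below 0 (-0.170, -0.036, -0.170 and -0.047). With the replicate block on title numbers, 17 pairs were called, the caudal hindbrain list passed with 4 members and the oligodendrocyte list with 3, and 9 members were lower under DCS in WT, and r fell below 0 for Syt2 and Scn4b (-0.29), Nefh and Kcna2 (-0.013), Scn4b and Kcna1 (-0.11), Scn4b and Kcna2 (-0.031), Pvalb and Kcna1 (-0.20), Pvalb and Kcna2 (-0.34), Kcna1 and Cplx1 (-0.18), and Kcna2 and Cplx1 (-0.064). With the replicate block on description numbers 19 pairs were called, each of these lists passed with 5 members, and Syt2 and Scn4b (-0.17), Pvalb and Kcna1 (-0.11), and Pvalb and Kcna2 (-0.23) were below 0. Without HT DCS replicates 5 and 6, 18 pairs were called and Pvalb and Kcna1 had -0.089. Without the 3 HT libraries 8 were called, and Scn4b and Kcna1 (-0.072), Pvalb and Kcna1 (-0.17), Kcna1 and Kcnc1 (-0.040), and Kcna1 and Cplx1 (-0.19) were below 0. The cause of these shifts was not tested. Count-based tests were not run, because whole reads could not be recovered.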
